A study of Mus musculus with 16 samples.

Results

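The 10 genes described here, H2-K1, H2-D1, B2m, Tap1, Tap2, Tapbp, Psmb8, Psmb9, Erap1 and Nlrc5, encode the classical MHC class I molecule, the machinery that supplies it with peptide and its transactivator. They were taken by symbol from the 17128 genes listed for plasmacytoid dendritic cells (pDCs) and the 17721 genes listed for conventional dendritic cells (cDCs), and all 10 were found in both tables. RNA-seq was done on 16 libraries of cells sorted from the spleens of C57BL/6 mice aged 6 to 8 weeks. Both genotypes carried the floxed Trim33 fl/fl alleles. The WT mice were Trim33 fl/fl without Cre, and the conditional knockout (cKO) mice were Trim33 fl/fl Itgax-Cre, in which Cre is driven by the CD11c gene Itgax, so deletion occurs in CD11c-expressing cells and not in the whole animal. The pDCs were sorted as CD11c+ and SiglecH+ cells and gave 3 libraries a genotype. The cDCs were sorted as SiglecH- cells positive for CD11c and MHC II, of which the cDC1s (CD24+ and CD172a-) gave 2 libraries a genotype and the cDC2s (CD24- and CD172a+) gave 3. Animals were pooled for a library, so each library is an average over mice. The paper gives larger pools for cKO than for WT libraries, so pool size and genotype cannot be told apart.

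MHC class I molecules display peptides from inside the cell to CD8+ T cells. Proteasomes cut proteins into peptides, the TAP transporter carries these into the endoplasmic reticulum, aminopeptidases trim them there, and tapasin helps to load them onto a heavy chain paired with beta-2 microglobulin. Nlrc5 is a transactivator recruited to the promoters of class I genes, and interferons and NF-kB signalling are known to raise their transcription. All nucleated cells use this pathway, and among DCs the cDC1s are known for presenting captured antigen on class I (cross-presentation).

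Promoter windows of 250 bases before to 50 bases after the gene start were held in the RefSeq table (GRCm38.p6) for 8 of the 10 members, the exceptions being Tap2 and Nlrc5. Both strands of these windows were searched for the motif letters known from class I promoters, because 3 of the 4 members that fell in cKO cDC1s (below) have a window. The kappa B letters bound by NF-kB, searched as GGGA and CC with any 4 bases between, were present in H2-K1, H2-D1 and B2m, against 20.5% of 27025 promoter windows. The interferon response factor letters GAANNGAAA were present in H2-K1 and H2-D1, against 7.56% of all windows. In both heavy chain genes these letters form a 30-base block, shown here on the strand of the gene with the kappa B and interferon response factor letters in capitals (the latter on the opposite strand), H2-K1 at chr17:34000429-34000458 on the minus strand and H2-D1 at chr17:35262923-35262952 on the plus strand.
H2-K1: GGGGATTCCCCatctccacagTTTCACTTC
H2-D1: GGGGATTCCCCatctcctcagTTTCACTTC
The blocks differ at 1 of 30 bases. The letters and spacing of this block were taken from these sequences after they were seen, so both genes match it by construction. A block with these fixed letters and spacing was found in 4 of the 27025 windows (0.0148%), both genes among them.

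A search for TGACGC, the start of the X2 box, found it in H2-K1 and H2-D1 (7.50% of all windows), and a shorter search for TGACG, chosen after the sequences were seen and overlapping the former, also found it in B2m, Tap1 and Psmb9 (21.02% of all windows). The Y box letters CCAAT were present in H2-K1, H2-D1, B2m, Tap1, Tapbp and Psmb9 (37.9% of all windows). In H2-K1, H2-D1 and B2m the TGACG letters stood 20 bases before the reversed Y box letters, which are in capitals in the lines that follow. These stretches lie at chr17:34000359-34000388 (minus strand), chr17:35262993-35263022 (plus strand) and chr2:122147609-122147638 (plus strand).
H2-K1: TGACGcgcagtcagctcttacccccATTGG
H2-D1: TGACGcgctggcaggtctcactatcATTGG
B2m: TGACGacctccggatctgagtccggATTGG
Between the capitals the sequences differ more, with 7 of 30 bases differing between H2-K1 and H2-D1 and 17 of 30 between H2-K1 and B2m. TGACG, 20 bases and ATTGG in this layout, also chosen after the sequences were seen, occurred in 26 of the 27025 windows (0.0962%). The B2m promoter from 180 to 40 bases before the start (chr2:122147507-122147647, plus strand) is given in full to show its kappa B letters upstream of that pair, all in capitals. The stretch also holds gaaactgaaa, left in lower case because its gap between GAA and GAAA is wider than the one searched. Other spacings of the interferon response factor letters were not searched.
B2m: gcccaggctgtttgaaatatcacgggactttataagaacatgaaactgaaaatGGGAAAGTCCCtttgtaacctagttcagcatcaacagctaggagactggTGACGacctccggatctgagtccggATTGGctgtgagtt
No match to any of these letters was found in the windows of Psmb8 and Erap1, and the windows of Tap1 and Psmb9, neighbouring genes read in opposite directions, overlap. The TGACG and CCAAT matches of Tap1 are the same bases as those of Psmb9, read on the other strand, so they are not separate sites. A match of letters is a description of the sequence and not a measured binding site.

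**Figure D1:**
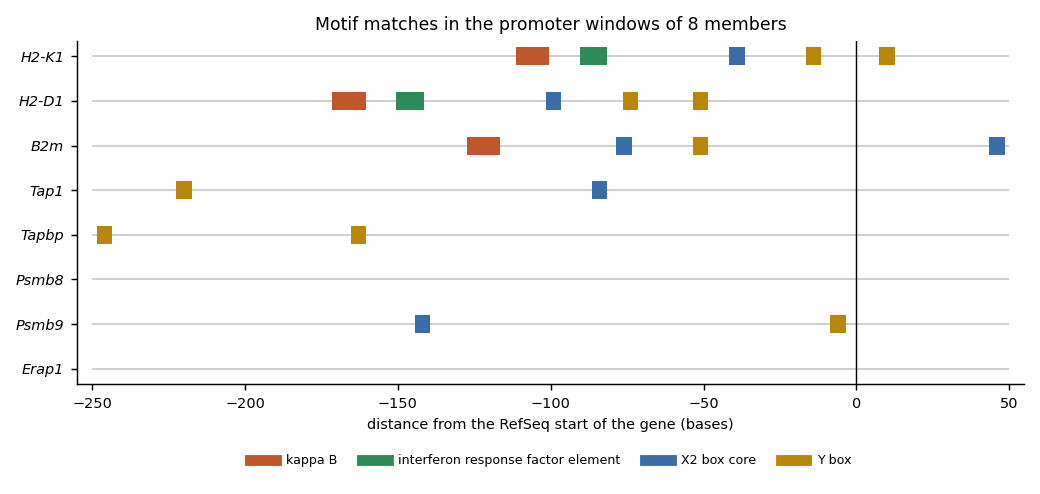
Positions of motif matches in the RefSeq promoter windows of 8 members, as distance from the gene start in bases (x axis, 0 is the start); colours give the motif, and grey lines the window from 250 bases before to 50 after the start. H2-K1, H2-D1 and B2m carry kappa B, X2 core and Y box letters in the same order upstream of the start, and Psmb8 and Erap1 carry none.

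All members other than B2m, Erap1 and Nlrc5 lie on chromosome 17. In GRCm38.p6 coordinates from RefSeq, H2-K1 is at chr17:33996012-34000619 and H2-D1 at chr17:35263094-35267497. Between them lie Psmb9 (chr17:34182030-34187330), Tap1 (chr17:34187556-34197225), Psmb8 (chr17:34198195-34201454) and Tap2 (chr17:34204479-34216321) in a row, and Tapbp is at chr17:33919478-33929290. B2m is at chr2:122147687-122153082, Erap1 at chr13:74639573-74693205 and Nlrc5 at chr8:94434335-94527272. Members that share sequence can exchange reads of 50 bases. Of all 50-base stretches of the H2-K1 transcript, 8.79% also occur in a transcript of another gene (6.94% in H2-D1), and for H2-D1 the share is 14.3% (5.31% in H2-K1). B2m and Nlrc5 share none. The other members share 5.83% (Psmb8) to 21.02% (Tapbp), and the neighbours Psmb9 and Tap1 share 12.5% and 6.47% of their stretches. The values of H2-K1 and H2-D1 are therefore uncertain to the extent that reads of the shared parts were assigned between them, and the strand of the reads was not given in the sources used here.

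Levels are in TPM, a transcript abundance that is corrected for length and scaled to the same total in each library. The depth, estimated from the spacing of low values, was 17850000 to 20100000 reads per library. A transcript of 2000 bases hit by 3 reads would then stand at 0.137 to 0.179 TPM, far below the lowest member value of 29.8 TPM (Nlrc5 in WT cDC2 library 1). Replicates of a group correlated at r = 0.981 to 0.994 across genes, and no 2 libraries were identical. Trim33 itself fell in cDC1s, from 15.5 and 18.2 TPM to 7.88 and 7.71, and in cDC2s, from 17.2 to 20.6 TPM down to 7.13 to 8.07. In pDCs it was at 20.6 to 23.8 TPM in WT and 11.7 to 16.5 in cKO libraries, without overlap, at an adjusted p of 0.0301 that did not pass the threshold. Summed over 8 cDC1 markers, WT cDC1 libraries held 3315 and 3549 TPM and WT cDC2 libraries 223 to 257, and the 8 cDC2 markers summed to 235 and 286 against 1690 to 1803, so each subset carried its own markers.

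In WT cells the members spanned a wide range of levels. B2m, the light chain common to all class I molecules, was the most abundant member in every group and ranked 2nd of all 17128 genes in WT pDCs, and 11th and 6th of 17721 in WT cDC1s and WT cDC2s. The heavy chains followed, H2-K1 at 3929 ± 116 TPM (SD, n = 3) and H2-D1 at 3669 ± 167 TPM (SD, n = 3) in WT pDCs. Tap1, Tap2, Tapbp, Psmb8 and Psmb9 lay between 111 and 836 TPM over all WT libraries. Erap1, which trims peptides at their amino end, and Nlrc5 were the least abundant, with 50.7 to 77.9 TPM and 29.8 to 113 TPM. The 10 genes together made up 1.88 to 1.99% of all TPM in WT pDCs, 1.19 and 1.46% in WT cDC1s and 1.38 to 1.55% in WT cDC2s. The pDC and cDC values come from tables that were normalised separately and were not tested against each other.

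**Figure D2:**
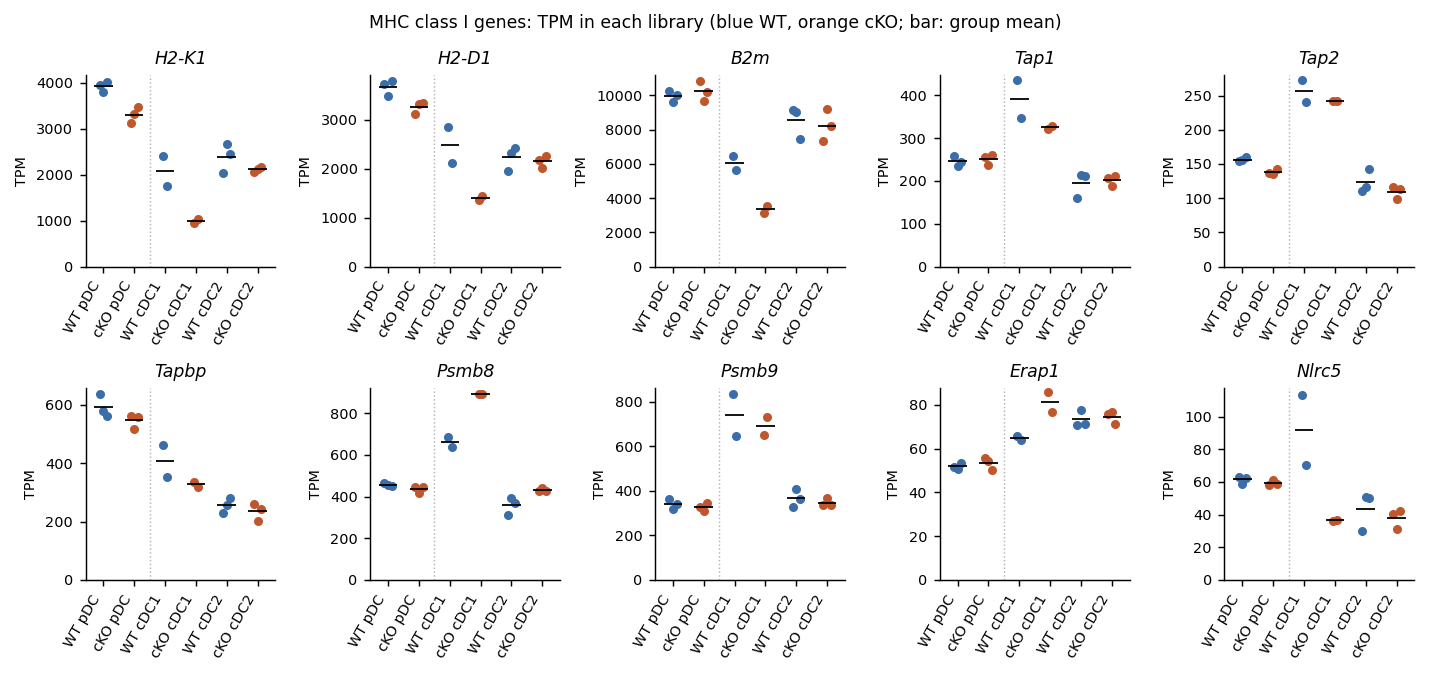
TPM of each member (y axis, from 0) in every library, by group (x axis); blue points are WT and orange points cKO libraries, and black bars are group means. The dotted line separates the pDC table from the cDC table, which were normalised separately. In cDC1s both cKO libraries lie below both WT libraries for H2-K1, H2-D1, B2m, Tap1, Tapbp and Nlrc5, and above them for Psmb8 and Erap1. Of all genes tested in cDC1s 24.1% lie below and 52.1% above in this way.

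Differences were tested with limma on log2(TPM + 1) over all genes whose mean reached 1 TPM. A gene was called when its Benjamini-Hochberg adjusted p did not exceed 0.01 and its log2 difference was 0.5 or more in size. Log2 differences are given with their standard error (SE), as cKO minus WT unless stated. On this scale low genes change by less than their ratio, which hardly affects genes at the levels of these members. The series text calls the libraries biological replicates.

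The comparison of WT cDC1s with WT cDC2s asks how the subsets differ without deletion. Tap1, Tap2, Tapbp, Psmb8, Psmb9 and Nlrc5 were higher in WT cDC1s, and the heavy chains, B2m and Erap1 did not pass the threshold. Of the 10 members 6 were called, all higher in cDC1s, where 31.7% of the 11411 genes tested were called in either direction and 10.9% as higher in cDC1s. The median log2 difference was 0.77 over the members and −0.17 over all genes tested, and 34.4% of called genes were higher in cDC1s with the deposited TPM against 51.4% after median-of-ratios scaling, which left the 6 member calls in place.

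Tap1 and Tap2, the subunits of the peptide transporter, were each higher in cDC1s than in cDC2s by about the same factor. Tap1 was at 434 and 348 TPM in WT cDC1 libraries 1 and 2 and at 159, 214 and 213 TPM in WT cDC2 libraries 1 to 3. The log2 difference of Tap1 was 1.00 (SE 0.14, adjusted p = 0.000254). For Tap2 the values were 272 and 241 TPM against 111, 117 and 142 TPM, and the log2 difference was 1.06 (SE 0.12, adjusted p = 5.37e-05). Tapbp, the gene of tapasin, showed 462 and 353 TPM in cDC1s and 230, 257 and 282 TPM in cDC2s, a log2 difference of 0.66 (SE 0.15, adjusted p = 0.00399).

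The immunoproteasome subunits are catalytic subunits that replace their constitutive counterparts and are encoded beside the transporter genes. Psmb8 was at 685 and 636 TPM in WT cDC1s and at 313, 392 and 370 TPM in WT cDC2s (log2 difference 0.89, SE 0.10, adjusted p = 5.91e-05). Psmb9 was at 836 and 646 TPM against 326, 408 and 363 TPM (log2 difference 1.01, SE 0.13, adjusted p = 0.000134). Neither gene overlapped between the subsets, but the share of all genes that separate in this way between the WT subsets was not counted. Nlrc5 was higher in WT cDC1s as well, at 113 and 70.1 TPM against 29.8, 50.9 and 50.1 TPM, with a log2 difference of 1.06 (SE 0.26, adjusted p = 0.00640). Its WT cDC1 libraries differed from each other more than those of any other called member. Nlrc5 was not called without WT cDC1 library 1 (log2 difference 0.71, adjusted p = 0.0761), without WT cDC2 library 1 (0.81, adjusted p = 0.0116) or without either cKO cDC1 library, which enter only the shared spread (adjusted p = 0.0116 and 0.0114), nor with no filter on low genes (adjusted p = 0.0166). Tapbp was not called without WT cDC1 library 1 (0.46, adjusted p = 0.0517) or without WT cDC2 library 1 or 2 (adjusted p = 0.0126 and 0.0105), and a fit of the WT groups alone called 4 members (Tap1, Tap2, Psmb8 and Psmb9).

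The remaining members did not pass the threshold. B2m was lower in WT cDC1s, at 6471 and 5648 TPM against 9172, 9038 and 7453 TPM, a log2 difference of −0.49 at an adjusted p of 0.0144. It was called lower in 2 of 19 alternatives, with quantile normalisation and without WT cDC2 library 3. H2-K1 (−0.20, adjusted p = 0.296) and H2-D1 (0.15, adjusted p = 0.412) overlapped between the subsets, H2-K1 being at 2416 and 1758 TPM against 2027 to 2668 TPM. Erap1 was at 65.6 and 63.8 TPM against 71.0 to 77.9 TPM (−0.18, adjusted p = 0.125). The TPM ratio of H2-K1 to H2-D1 was 0.845 and 0.828 in WT cDC1s and 1.01 to 1.15 in WT cDC2s, subject to the shared sequence of these genes.

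**Figure D3:**
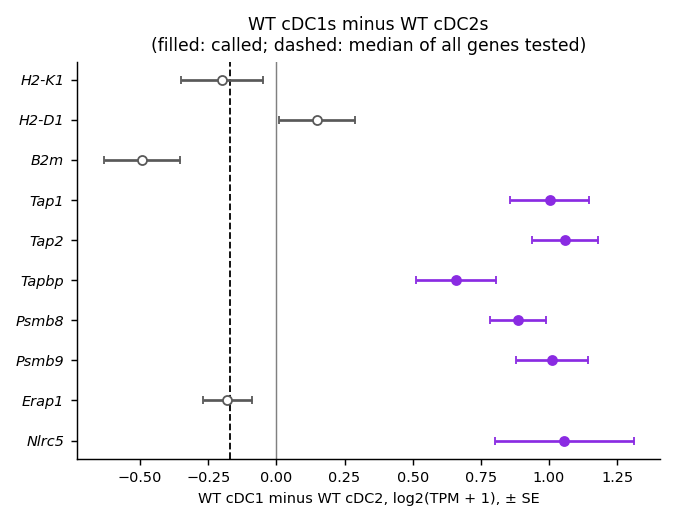
Log2 difference of each member between WT cDC1s and WT cDC2s on the log2(TPM + 1) scale (x axis; points with SE, positive is higher in cDC1s). Filled points were called, and the dashed line is the median over all genes tested (−0.17). The 6 filled points lie between 0.66 and 1.06, and the heavy chains, B2m and Erap1 lie between −0.49 and 0.15.

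Other genes of the pathway were read from lists. Among 14 tested genes of peptide supply and loading, 5 were called higher and 2 lower in WT cDC1s, with a list median of 0.28. They include Pdia3, a disulfide isomerase of the loading complex (698 ± 44.1 TPM, SD, n = 2, against 318 ± 11.5, SD, n = 3; log2 difference 1.13), the proteasome activator subunit Psme1 (0.91), the tapasin-related Tapbpl (0.87) and the chaperone Calr (0.72). Lnpep, an aminopeptidase of endosomes, was lower (−1.02). Of the 14 core subunits of the constitutive proteasome, 3 were called higher (Psmb7, Psma5 and Psmb5, at 0.51 to 0.65), with a median of 0.31. Without WT cDC1 library 1, 2 genes of peptide supply and 0 core subunits were called higher, and over all alternatives 2 to 6 and 0 to 6. Of 16 other class I and class I-like heavy chains tested, 2 were called higher (Fcgrt, 1.44, and Cd1d1, 1.41) and 3 lower (H2-M2, −1.79, Mr1, −1.40, and H2-T24, −1.198). Of 14 regulators of class I genes, Rfxap was higher (0.63) and Nfkb1 (−1.53) and Rfx5 (−0.84) were lower. Of 18 interferon-inducible genes tested, 2 were called higher and 9 lower in WT cDC1s, with a median of −1.02. Of 15 genes of mature DCs, 5 were called higher and 1 lower, with a median of 0.85, and their part in the member differences was not tested.

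The comparison of cKO with WT asks what the loss of Trim33 changes in each subset. In cDC1s the classical heavy chains, the light chain and Nlrc5 were lower in cKO, while the peptide supply members did not pass the threshold. In all, 4 of the 10 members were called, all lower in cKO: H2-K1, H2-D1, B2m and Nlrc5. Of the 11411 genes tested 22.4% were called in cDC1s, and 6.56% were called lower. TPM has the same total in each library. The median log2 difference was −0.28 over the members and 0.17 over all genes tested, so the median gene was shifted upwards in cKO cDC1s. Another scaling moves that shift: 70.7% of called genes were higher in cKO with the deposited TPM and 49.9% after median-of-ratios scaling. In bulk samples, fewer cells of one kind and less RNA per cell cannot be told apart.

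H2-K1, a classical heavy chain, was at 2416 and 1758 TPM in WT cDC1 libraries 1 and 2 and at 946 and 1035 TPM in cKO libraries 1 and 2. Both cKO libraries lay well below both WT libraries, and the cKO libraries differed less from each other than the WT libraries did. The log2 difference was −1.06 (SE 0.16, adjusted p = 0.000957), which is −1.23 relative to the median of all genes.

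H2-D1, the other classical heavy chain, was at 2859 and 2125 TPM in WT and at 1356 and 1446 TPM in cKO cDC1s. The groups did not overlap. Its log2 difference was −0.82 (SE 0.15, adjusted p = 0.00256), or −0.99 relative to the median. The ratio of H2-K1 to H2-D1 was 0.828 and 0.845 in WT and 0.698 and 0.716 in cKO cDC1 libraries.

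B2m was at 6471 and 5648 TPM in WT and at 3138 and 3565 TPM in cKO cDC1s, again without overlap. Its log2 difference was −0.85 (SE 0.15, adjusted p = 0.00201), or −1.03 relative to the median, and B2m has no shared stretch of read length with another gene. The TPM of B2m over that of both heavy chains was 1.23 and 1.45 in WT and 1.36 and 1.44 in cKO libraries, so the light and heavy chains were lower by similar factors.

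Nlrc5 was at 113 and 70.1 TPM in WT and at 36.1 and 36.8 TPM in cKO cDC1s. The cKO libraries were close together, while the WT libraries were spread. The log2 difference was −1.27 (SE 0.28, adjusted p = 0.00567), the largest of the members in size and also the one with the largest error.

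These calls rest on 2 libraries a group. All 4 members stayed lower in each fit that left out 1 library. The number called fell to 1 with no filter on low genes (H2-K1), to 1 without WT cDC1 library 1 (H2-K1), to 0 without cKO cDC1 library 1 and to 1 without cKO cDC1 library 2 (H2-K1). With a crossed replicate block, chosen after seeing the data, Nlrc5 was not called (adjusted p = 0.0109).

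Among the peptide supply members none passed the threshold, and their directions were mixed. Psmb8 was at 685 and 636 TPM in WT and at 890 and 893 TPM in cKO cDC1s, higher in both cKO libraries, with a log2 difference of 0.43 that missed the threshold (SE 0.11, adjusted p = 0.0130) and was 0.26 relative to the median of all genes. Erap1 was at 65.6 and 63.8 TPM against 86.0 and 77.0 TPM (log2 difference 0.33, SE 0.10, adjusted p = 0.0244), or 0.15 relative to the median. Tap1 was at 434 and 348 TPM in WT and 321 and 328 TPM in cKO libraries, all below WT but at an adjusted p of 0.220 (log2 difference −0.26, or −0.43 relative to the median).

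Tapbp likewise lay lower in both cKO libraries, at 337 and 318 TPM against 462 and 353 TPM, with an adjusted p of 0.162 (log2 difference −0.30, or −0.47 relative to the median). Tap2 (242 and 242 TPM in cKO, 272 and 241 TPM in WT) and Psmb9 (650 and 731 TPM in cKO, 836 and 646 TPM in WT) overlapped between genotypes, at log2 differences of −0.08 and −0.09, or −0.26 and −0.26 relative to the median. In all, 6 members had both cKO libraries below both WT libraries, 2 had both above, and 2 overlapped. Of all genes tested 24.1% had both cKO libraries below and 52.1% both above, since with 2 libraries a group such a separation is common.

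**Figure D4:**
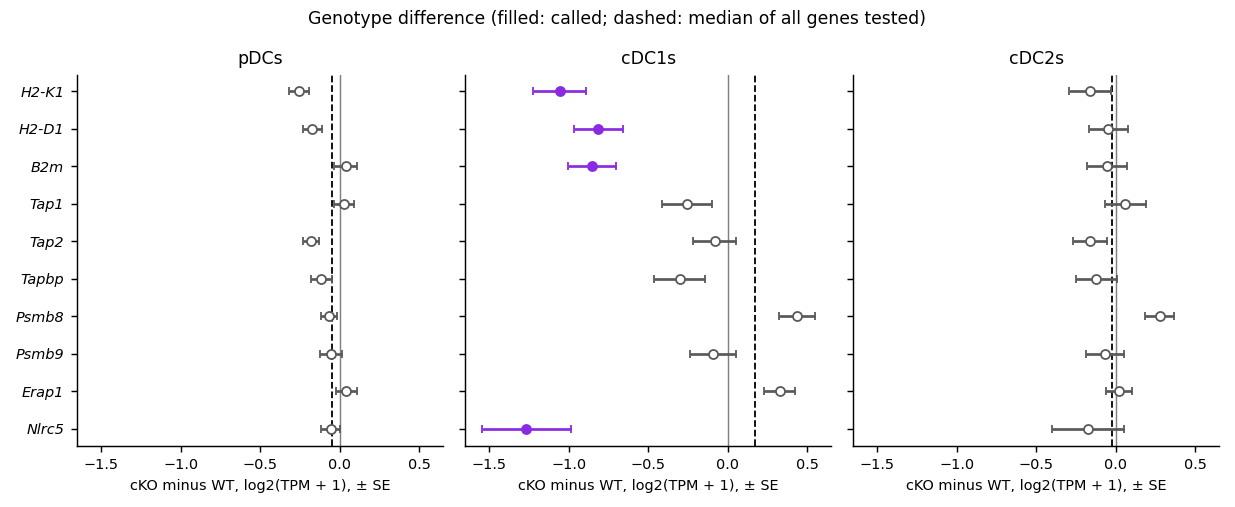
Log2 difference between cKO and WT on the log2(TPM + 1) scale (x axis; points with SE) for the 10 members in pDCs, cDC1s and cDC2s. Filled points were called, and the dashed line is the median over all genes tested. In cDC1s H2-K1, H2-D1, B2m and Nlrc5 lie between −0.82 and −1.27, while in pDCs and cDC2s all points lie between −0.25 and 0.28.

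Other heavy chains were lower in cKO cDC1s too. Of 16 nonclassical and class I-like heavy chains tested, 7 were called lower and 0 higher, with a list median of −0.54. H2-M2 fell from 35.1 ± 16.3 to 3.59 ± 1.29 TPM (SD, n = 2 and 2; log2 difference −2.93), and Hfe, which takes part in iron uptake and pairs with B2m, from 142 ± 17.3 to 29.97 ± 1.68 TPM (SD, n = 2 and 2; −2.21). H2-Q7 (−1.38), H2-Q6 (−1.22) and H2-Q4 (−1.10) fell too, but these neighbours are near copies and reads may have been split between them. Leaving out single libraries or changing the settings gave 3 to 10 lower calls in this list. Of 14 peptide supply and loading genes 3 were called higher, the peptidases Thop1 (1.28) and Blmh (0.73) and the chaperone Canx (0.53), and 0 lower, with a median of 0.36. Among all 11411 genes tested 1806 were called higher in cKO cDC1s, and their median was 0.17 over all genes tested. None of the 14 core proteasome subunits was called in limma, where 7 had an unadjusted p under 0.05, and their median was 0.31.

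Among the regulators, of 14 tested Nfkb1 was called higher (0.86, from 117 ± 10.7 to 214 ± 6.73 TPM, SD, n = 2 and 2) and Rfx5, a subunit of the factor bound to the X box, lower (−0.50, from 42.3 ± 2.75 to 29.6 ± 0.76 TPM, SD, n = 2 and 2). With a replicate block 1 regulator was called higher and 0 lower. Irf1, an interferon-induced activator of class I genes, was at 181 ± 96.8 TPM in WT and 85.7 ± 5.81 TPM in cKO (SD, n = 2 and 2) and was not called (log2 difference −0.96, adjusted p = 0.0415). Of 18 interferon-inducible genes only Isg15 was called, as higher, and the list median was 0.23. With FPKM, median-of-ratios scaling or quantile normalisation 0 of these genes were called, and with the cDC1 groups alone 3 were called higher.

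Mature DC genes were lower in the same libraries. Of 15 such genes 14 were called lower in cKO cDC1s, with a median of −2.16. Over the alternatives 6 to 14 were called, the lowest counts being 6 without cKO cDC1 library 1, 8 without WT cDC1 library 1 and 9 without cKO cDC1 library 2. Summed, the list was at 2996 TPM in WT cDC1 library 1 and 2148 in library 2, and at 497 and 610 TPM in cKO libraries 1 and 2. Ccr7, the receptor that guides mature DCs to lymph nodes, fell by 4.37 on the log2 scale (SE 0.41), from 556 ± 195 to 26.1 ± 10.8 TPM (SD, n = 2 and 2), and Relb, an NF-kB subunit, fell by 1.56 (SE 0.22). WT library 1 was the higher of the WT cDC1 libraries in this sum and in all 10 members. The cDC1 marker sum was 3315 and 3549 TPM in WT and 2537 and 2652 in cKO, the pDC marker sum 190 and 198 against 321 and 322, and the NK cell sum 47.6 and 60.8 against 100 and 113, in which Klrk1 was called higher and 5 of the 6 genes were under 1 TPM in both cKO libraries. B cell markers summed to 35.4 and 47.9 TPM in WT and 64.7 and 58.7 in cKO libraries, and neutrophil markers to 1.81 and 16.7 against 21.4 and 40.2. These sums hide mixed directions: of 8 pDC markers 3 were called higher and 1 lower. Of 6 B cell markers tested 1 was called higher and 1 lower. Of 8 cDC2 markers 1 was called higher (Itgam, 2.10) and 2 lower (Esam and Cd4). Their sum overlapped, at 235 and 286 TPM in WT and 230 and 255 in cKO libraries. Of 10 monocyte and macrophage markers 3 were called higher (among them Ccr2, 2.10) and 1 lower, with a list median of −0.43. Their sum also overlapped, at 767 and 992 TPM in WT and 907 and 881 in cKO libraries. Erythroid markers summed to 2319 and 278 TPM in WT libraries 1 and 2 and to 909 and 737 TPM in cKO libraries 1 and 2. The part of mature cells, or of other cells, in the class I differences was not tested.

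**Figure D5:**
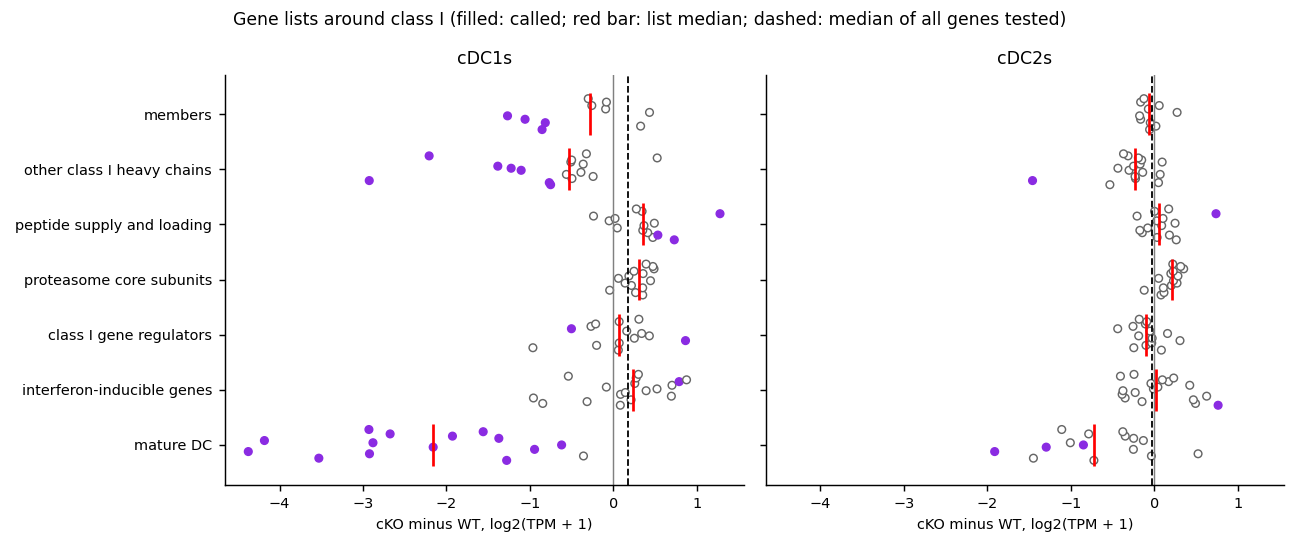
Log2 difference between cKO and WT (x axis, log2(TPM + 1) scale) for each tested gene of 7 lists in cDC1s and cDC2s; filled points were called, red bars are list medians, and the dashed lines are the medians over all genes tested. In cDC1s the medians of the other class I heavy chains (−0.54) and the mature DC genes (−2.16) lie to the left of 0, and those of peptide supply (0.36) and proteasome core genes (0.31) to the right. The median over all genes tested in cDC1s also lies to the right, at 0.17.

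In cDC2s no member was called, where 7.15% of 11411 genes were called. At an unadjusted p under 0.05 there was 1 member in limma, Psmb8. Psmb8 was at 313, 392 and 370 TPM in WT and at 425, 442 and 428 TPM in cKO libraries 1 to 3, so all cKO libraries were above all WT libraries. Its log2 difference was 0.28 (SE 0.09, adjusted p = 0.0623). The other 9 members overlapped between the genotypes, and of all genes tested 16.3% had every cKO library above and 19.2% every cKO library below the WT libraries.

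H2-K1 was at 2027, 2668 and 2457 TPM in WT and at 2068, 2119 and 2164 TPM in cKO cDC2s, overlapping, with a log2 difference of −0.16 (SE 0.13). B2m overlapped as well, at 7453 to 9172 TPM in WT and 7325 to 9192 TPM in cKO libraries (log2 difference −0.05, SE 0.13). H2-D1 differed by −0.05 (SE 0.13) and Nlrc5 by −0.17 (SE 0.23), and the other members by −0.16 to 0.06. The median over the members was −0.06 and over all genes −0.03, and 50.2% of the called genes were higher in cKO with the deposited TPM against 60.5% after median-of-ratios scaling.

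In the lists, 1 of 14 peptide supply genes was called (Thop1, 0.74), 1 of 16 other heavy chains (H2-M2, −1.46), 0 of 14 regulators and 0 of 14 core proteasome subunits (limma, 2 and 5 at an unadjusted p under 0.05). Over the alternatives 0 to 2 of the other heavy chains were called lower. Of the mature DC genes 3 of 15 were called lower (1 to 3 over the alternatives), and the list summed to 1482 to 2116 TPM in WT and 855 to 1096 TPM in cKO cDC2s. Ccr7 was among them, at 269 ± 95.1 TPM in WT and 69.4 ± 19.9 TPM in cKO cDC2s (SD, n = 3 and 3; log2 difference −1.91). The monocyte and macrophage markers summed to 1934 to 2374 TPM in WT and 3242 to 4185 TPM in cKO libraries, and the part of these cells in the member values was not tested.

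The ratio of Psmb8 to Psmb9 gives the balance of the neighbouring immunoproteasome genes. It was 0.819 and 0.984 in WT cDC1s and 1.22 and 1.37 in cKO cDC1s. In cDC2s it was 0.958 to 1.02 in WT and 1.198 to 1.27 in cKO libraries, so in both cDC subsets every cKO library had a higher ratio than every WT library. In pDCs the ratio overlapped, at 1.28 to 1.44 in WT and 1.28 to 1.37 in cKO. Ratios to core subunits differed from this. Psmb8 over Psmb5 overlapped, at 4.27 and 4.62 in WT and 4.23 and 4.32 in cKO cDC1s, and at 3.28 to 3.65 and 3.16 to 3.29 in cDC2s. Psmb9 over Psmb6 was lower in every cKO library, at 3.82 and 5.13 against 2.87 and 3.10 in cDC1s. In cDC2s it was 2.41 to 2.73 in WT and 1.97 to 2.02 in cKO. These ratios are described without a test and were chosen with the values known, and part of the Psmb9 transcript is shared with Tap1. How many gene pairs separate in this way was not counted.

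The difference between the genotype effects in cDC1s and in cDC2s was tested as an interaction. No member was called, where 2.56% of 11411 genes were called, and 5 members had an unadjusted p under 0.05 in limma. The cDC1 effect was lower than the cDC2 effect by 0.90 on the log2 scale for H2-K1 (SE 0.21, adjusted p = 0.0284), by 0.80 for B2m (SE 0.20, adjusted p = 0.0323) and by 0.77 for H2-D1 (SE 0.20, adjusted p = 0.0370). Nlrc5 differed by −1.09 (SE 0.36, adjusted p = 0.0771). In simulated data 30% of differences of 1 on the log2 scale and 78% of those of 2 were recovered in this contrast, against 62% and 97% for the cDC1 genotype difference. Of all called genes 47.3% had the higher effect in cDC1s with the deposited TPM and 26.2% after median-of-ratios scaling. With that scaling 2 members were called, H2-K1 (−1.12) and H2-D1 (−0.99), beside 3.34% of all genes, and at an adjusted p of 0.05 with any size of difference the 3 heavy and light chain genes stood beside 11.3% of all genes. Of the 16 other heavy chains only Hfe was called (−1.89, adjusted p = 0.000260), and 2 of 15 mature DC genes were called, both as lower.

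In pDCs no member was called, where 1.05% of 11299 genes were called, and 3 members had an unadjusted p under 0.05 in limma. The heavy chains, Tap2 and Psmb8 were lower in each cKO library than in each WT library, as were 16.7% of all genes tested, while 10.8% were higher in each. H2-K1 was at 3961, 3800 and 4024 TPM in WT and at 3119, 3311 and 3461 TPM in cKO libraries 1 to 3, with a log2 difference of −0.25 (SE 0.06, adjusted p = 0.0682). H2-D1 was at 3482 to 3803 TPM in WT and 3124 to 3334 TPM in cKO libraries (log2 difference −0.17, SE 0.06, adjusted p = 0.175).

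Tap2 was at 154 to 160 TPM in WT and 135 to 143 TPM in cKO pDCs, without overlap (log2 difference −0.18, SE 0.05, adjusted p = 0.106). Psmb8 was also lower in each cKO library, at 417 to 448 TPM against 449 to 465 TPM, a log2 difference of −0.07. B2m was at 9643 to 10269 TPM in WT and 9683 to 10839 TPM in cKO pDCs, and it, Tap1, Tapbp, Psmb9, Erap1 and Nlrc5 overlapped. The median over the members was −0.06 and over all genes −0.05, and all of these differences are smaller than the log2 difference of 0.5 set for a call. With the replicate number as a block, 335 genes in place of 119 were called, again with no member among them, and the adjusted p of H2-K1 was 0.0424 and that of Tap2 0.0471. None of the peptide supply genes, core proteasome subunits, other heavy chains or regulators was called in pDCs in limma without the block (2, 3, 5 and 1 of them at an unadjusted p under 0.05). With the block 1 other heavy chain was called lower. Of 17 interferon-inducible genes tested, 0 were called without the block and 4 were called higher with it. T cell markers summed to 73.0 to 101 TPM in cKO and 34.5 to 47.9 TPM in WT pDCs, and neutrophil markers summed to 28.6 to 131 TPM against 8.59 to 28.7, and their part in the member values was not tested.

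Over the 10 cDC libraries the order of the groups differed between members. H2-K1, H2-D1 and B2m had their lowest mean in cKO cDC1s, and B2m its highest in WT cDC2s (8554 ± 956 TPM, SD, n = 3), which did not differ from cKO cDC2s (8237 ± 934, SD, n = 3) beyond the spread. Nlrc5 was highest in WT cDC1s (91.8 ± 30.6 TPM, SD, n = 2) and lay at similar levels in cKO cDC1s (36.5 ± 0.45, SD, n = 2), cKO cDC2s (37.8 ± 6.02, SD, n = 3) and WT cDC2s (43.6 ± 11.95, SD, n = 3). Psmb8 ran from WT cDC2s (358 ± 41.1 TPM, SD, n = 3) over cKO cDC2s (432 ± 9.11, SD, n = 3) and WT cDC1s (660 ± 34.5, SD, n = 2) to cKO cDC1s (891 ± 1.58, SD, n = 2).

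Patterns most like those of a member were sought among 8189 genes with a mean of at least 10 TPM, by the root mean square difference of centred log2(TPM + 1) over the 10 cDC libraries. For H2-K1 the closest genes were Cd40 (0.13), Anxa4 (0.13) and Il10ra (0.13). For Tap1 they were Psme1 (0.10), Slc25a38 (0.10) and Asl (0.11), and for Nlrc5 Rnaset2a (0.17), Akt1s1 (0.20) and Tbc1d8 (0.21). Cd40, the closest to H2-K1, was at 72.3 ± 18.8 TPM in WT and 36.8 ± 6.76 TPM in cKO cDC1s (SD, n = 2 and 2) and belongs to the mature DC list.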

How the data were processed

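Splenic DC subsets were sorted and their mRNA sequenced. The authors aligned and quantified the reads, and the submitters' processing notes name HISAT2 2.0.4, Bowtie2 2.2.5, RSEM 1.2.12 and the mm10 build without roles or order. The authors deposited TPM and FPKM per gene, in 1 table of each for pDCs and 1 for cDCs, normalised separately. No value column was without a matching sample. Counts were not used here, so in place of the count model that the authors ran, limma 3.58.1 (R 4.3.3) was fitted to log2(TPM + 1), with a mean-variance trend and Benjamini-Hochberg adjustment, over genes with a mean of at least 1 TPM. All 10 cDC libraries shared 1 fit and the 6 pDC libraries another. Group comes from the sample labels.

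The members and lists were chosen with earlier results of these data known. All 10 members are named in every comparison. Of the pathway lists at most 5 called genes a list are named, by size of difference, with Ccr7, Relb and Irf1 and the 3 genes closest in pattern to H2-K1, Tap1 and Nlrc5. A further gene of that rule is not reported here. Isg15, Klrk1, Itgam, Esam, Cd4 and Ccr2 were named after their values were seen, as were the ratios.

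Same-numbered pDC libraries deviated together (r = 0.310, 0.392 and 0.206 across genes), so the numbers may pair them. The main pDC fit did not use this pairing, which entered only in the replicate block. P-values measure the spread between libraries of pooled animals, and the pools were larger for cKO than for WT libraries. Depth was estimated by scanning 12000000 to 30000000 reads for the value at which low FPKM came out as whole reads (within 0.05). At best 28.4 to 42.0% of values were whole, against a median of 6.35 to 8.64% over the scan, so the estimate is approximate. The fits were tested on simulated data. Alternatives were a pseudocount of 0.1, no filter on low genes, FPKM, other scalings, no trend, a replicate block, the compared groups alone, an adjusted p of 0.05 and leaving out each library. Other steps were run in Python 3.11.15 with pandas 2.3.3 (on numpy 2.4.6), and plots were drawn with matplotlib 3.10.9. Promoter windows came from RefSeq (GRCm38.p6), and shared 50-base stretches were counted in GENCODE transcripts.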

Additional observations from a re-analysis of the deposited data

Results flagged for a closer look

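For 3 members the genotype effect differed between the cDC subsets at an adjusted p under 0.05 in limma, which misses the 0.01 set for a call and was reached by 11.3% of the 11411 genes tested. The log2 effect in cDC1s minus that in cDC2s was −0.90 for H2-K1, −0.80 for B2m and −0.77 for H2-D1. Each of these genes was lower in both cKO cDC1 libraries than in both WT cDC1 libraries and overlapped between the genotypes in cDC2s.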

How the results depend on the processing

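Of 880 alternative values of the members, 28 changed sign, in 16 results, and none of these was among the 10 called member results. Of the 190 alternatives of the 10 called results, 24 lost the call. In cDC1s the number of members called was 4, and it was 1 with no filter on low genes and 0 to 4 when 1 library was left out. For the genotype effect in cDC1s minus that in cDC2s, 0 members were called, against 2 after median-of-ratios scaling (381 of 11409 genes) and 3 when the adjusted p could reach 0.05 and any size of difference was accepted (1286 of 11411 genes) (limma, 5 at an unadjusted p under 0.05). Log2 differences that changed sign were small. With median-of-ratios scaling H2-D1 in cDC2s was at 0.0051, Erap1 between WT cDC1s and WT cDC2s at 0.014, and Tap2 and Psmb8 for the difference of effects at −0.145 and −0.066. With quantile normalisation B2m in pDCs was at 0.0, which is counted here as a sign change although it has no sign. B2m ranked 2nd by mean TPM in both WT and cKO pDCs, and this scaling gives equal ranks equal values. With the same scaling Tap2 and Psmb8 for the difference of effects were at −0.016 and −0.032. With FPKM Tap2 was at −0.029 for the difference of effects. The cause was not tested.

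Leaving out 1 library gave ranges that crossed 0 in pDCs for B2m (−0.0027 to 0.079) and Tap1 (−0.0018 to 0.072). In cDC1s they did so for Tap2 (−0.17 to 0.0040) and Psmb9 (−0.28 to 0.094). In cDC2s they did so for H2-D1 (−0.14 to 0.015), B2m (−0.15 to 0.027), Tap1 (−0.079 to 0.13), Psmb9 (−0.15 to 0.012) and Erap1 (−0.0024 to 0.064). Between WT cDC1s and WT cDC2s they did so for H2-K1 (−0.43 to 0.029) and H2-D1 (−0.066 to 0.36). For the difference of effects they did so for Tap2 (−0.027 to 0.17), Tapbp (−0.37 to 0.017) and Psmb9 (−0.21 to 0.16).

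With a replicate block 0 members were called in pDCs, 4 in cDC1s, 0 in cDC2s, 6 between the WT subsets and 0 for the difference of effects, the same numbers as without it. Same-numbered libraries did not deviate together throughout in cDC2s (r = −0.249, 0.253 and −0.165) or in cDC1s (r = −0.233), where they share only a number. A crossed replicate block in cDC1s, chosen after seeing the data, called 3 members, without Nlrc5, and 2156 genes in place of 2555. When 1 library was left out, the calls over all genes ranged from 12 to 97 in pDCs (119 with all libraries), 800 to 2888 in cDC1s (2555), 316 to 907 in cDC2s (816), 2649 to 3575 between the WT subsets (3612) and 77 to 282 for the difference of effects (292).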
